A study of Mus musculus with 4 samples.

Results

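The heat shock chaperones described here are 10 genes, chosen by name from the 23234 genes of the table: Hspa8, Hspa1a, Hspa1b, Hsph1, Dnajb1, Hsp90aa1, Hsp90ab1, Hspa9, Hspd1 and Hspe1. All 10 had a row in each of the 3 comparisons, and all 10 reached 1 FPKM (fragments per transcript length and sequencing depth) in every library. They were measured by RNA sequencing of mouse ESREs (extensively self-renewing erythroblasts), which are red cell precursors that keep dividing in culture without maturing. The 3 libraries used were proliferating Setd8 knockdown cells, which carried a short hairpin RNA against Setd8, control cells 6 h after transfer to maturation medium, and proliferating control cells. Both kinds of control carried a non-targeting hairpin. A knockdown sample placed in maturation medium is also described in the labels and was not analysed here. Each group had 1 library. The labels tell neither whether it came from 1 culture or several nor, for the knockdown, whether a second hairpin was tried, and the number 73 in that library's name is not explained. The mouse strain is not given in them.

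Heat shock chaperones bind unfolded proteins and help them fold. In the cytosol, Hsp70 proteins take up client proteins from J-domain partners such as Dnajb1, release them with the help of Hsp110 exchange factors such as Hsph1, and can pass them on to Hsp90. In mitochondria, the Hsp70 protein Hspa9 pulls in imported proteins, and the Hsp60 barrel (Hspd1) with its Hsp10 lid (Hspe1) encloses them for folding. Heat shock factor 1 (Hsf1) induces many of these genes by binding inverted repeats of GAA, the heat shock elements. In erythroblasts, which make large amounts of globin, human Hsp70 is known to shield the transcription factor GATA1 from caspase cleavage.

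Sequence upstream of the genes is shown first, because it carries the heat shock elements and shows which members have upstream sequence in common. RefSeq promoter windows (GRCm38.p6, 250 bases before to 50 after an annotated start) matched 6 members: Hsph1, Hspa1a, Hspa1b, Dnajb1, Hspd1 and Hspe1. Hspa8, Hspa9, Hsp90aa1 and Hsp90ab1 had no entry. A short heat shock element was searched as GAANNTTC or TTCNNGAA, where N is any base, and a long one as either of these followed by NN and its own first 3 letters. Both spellings of the short element read the same on either strand, and those of the long one are reverse complements of each other, so both strands were covered. Every long match contains short ones. Capitals in the sequences below mark these matches. The Hsph1 sequence ends 28 bases after the start, since its long match lies there, and the others end at the last base before the start.
Hsph1 (chr5:149636288-149636565, minus strand): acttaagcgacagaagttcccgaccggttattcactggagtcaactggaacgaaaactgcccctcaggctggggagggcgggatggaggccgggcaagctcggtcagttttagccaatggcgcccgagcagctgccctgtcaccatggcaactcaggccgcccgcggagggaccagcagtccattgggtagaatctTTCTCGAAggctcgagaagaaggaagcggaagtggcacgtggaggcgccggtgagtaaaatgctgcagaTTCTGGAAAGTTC
Hspe1 (chr1:55087898-55088147, plus strand): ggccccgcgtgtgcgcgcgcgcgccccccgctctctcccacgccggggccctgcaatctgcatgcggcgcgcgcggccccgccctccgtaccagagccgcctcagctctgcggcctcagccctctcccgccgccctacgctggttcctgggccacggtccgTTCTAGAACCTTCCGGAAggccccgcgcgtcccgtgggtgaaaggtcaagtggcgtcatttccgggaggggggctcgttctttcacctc
Hspa1a (chr17:34972157-34972406, minus strand): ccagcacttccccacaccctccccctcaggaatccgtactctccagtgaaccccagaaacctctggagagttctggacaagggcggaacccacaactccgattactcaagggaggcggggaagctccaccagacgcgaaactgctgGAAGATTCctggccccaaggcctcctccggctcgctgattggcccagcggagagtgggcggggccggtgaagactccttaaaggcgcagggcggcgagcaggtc
Hspa1b (chr17:34959239-34959488, minus strand): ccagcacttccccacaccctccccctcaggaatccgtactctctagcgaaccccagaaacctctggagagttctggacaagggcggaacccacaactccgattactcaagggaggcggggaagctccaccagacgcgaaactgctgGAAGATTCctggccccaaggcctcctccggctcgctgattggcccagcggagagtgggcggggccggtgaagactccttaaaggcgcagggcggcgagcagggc

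A long element was found in windows of 3 of the 6 members, Hsph1, Hspd1 and Hspe1, against 0.603% of all 32851 windows. The Hspe1 sequence stands for Hspd1 as well. The genes lie head to head, and 285 of the 300 bases of the Hspe1 window also belong to an Hspd1 window on the other strand. In this stretch 2 long matches overlapped, between 89 and 72 bases before the Hspe1 start in the map of motif matches, where such positions carry a minus sign. In Hsph1 the long match lay 16 to 28 bases after the start of its first window, and a separate short match lay before that start. Hspa1a and Hspa1b each had 1 short match at the same place, and the 250 bases before their starts differed at 3 positions. Short matches were present in 15.1% of all windows and in windows of 5 of the 6 members. Dnajb1 had no match to these letters in either of its 2 windows, although it had CCAAT boxes, which 37.4% of all windows held (searched as CCAAT or ATTGG). A match of letters does not show binding.

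**Figure D1:**
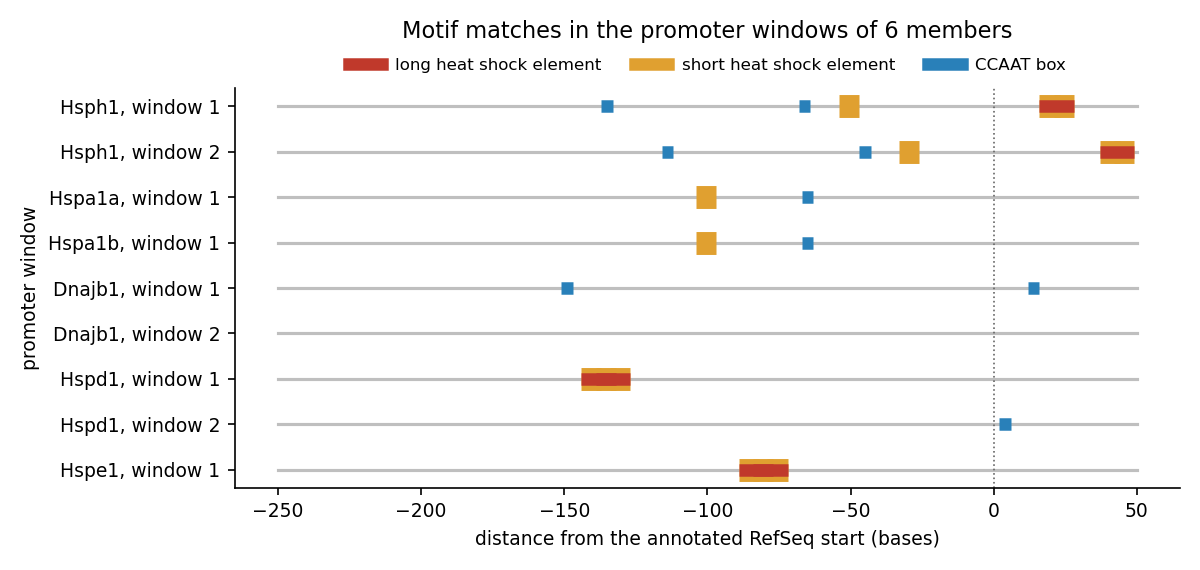
Positions of motif matches in the 9 RefSeq promoter windows of 6 members, in bases from the annotated start (dotted line, transcription to the right). Long heat shock elements (red) appear in Hsph1 after the start and in the stretch shared by Hspd1 and Hspe1 before it, while Hspa1a and Hspa1b have identical maps with 1 short element each (orange).

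Sequence shared between genes limits some of the levels below. Of the 31-base words in the longest coding transcript of each member (GENCODE M21), none of those of Hsph1 occurred in a transcript of another gene. For Dnajb1 the share was 0.441%, for Hspa9 14.0% and for Hsp90ab1 16.6%. Hspa1a shared 63.8% of its words with Hspa1b, so the division of fragments between these copies is uncertain. Hspa8 shared 77.2% of its words with 13 other annotated genes, Hsp90aa1 62.9% with 17, Hspd1 55.8% with 19 and Hspe1 48.1% with 7, several of them annotated pseudogenes such as Hspd1-ps3. Hsph1 is therefore the member whose fragments are the least ambiguous by this measure.

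The target of the hairpin was examined ahead of the chaperone levels. Setd8, the enzyme that adds a single methyl group to lysine 20 of histone H4, stood at 9.28 FPKM in the knockdown, 25.9 FPKM in the maturing control and 25.1 FPKM in the proliferating control. It fell in the knockdown, with a log2 ratio of -1.43 and q = 0.0122 in the authors' deposited table. Low FPKM values put the sequencing depth of the knockdown library at 1.44 times and that of the maturing control at 1.55 times the depth of the proliferating control, and the absolute depth is unknown. All 5 erythroblast markers examined (Gata1, Klf1, Epor, Tfrc and an entry that names both alpha globin genes) were measured in all libraries, with summed levels of 387 FPKM in the knockdown, 1967 FPKM in the maturing control and 1007 FPKM in the proliferating control. The alpha globin entry carried most of these sums, and without it the other 4 markers summed to 121.8 FPKM in the knockdown, 220.2 FPKM in the maturing control and 164.5 FPKM in the proliferating control. Of the 5, Gata1 alone was higher in the knockdown than in the proliferating control, at 61.1 FPKM in the knockdown, 65.5 FPKM in the maturing control and 52.8 FPKM in the proliferating control. The 4 mast cell or basophil markers, 3 of them measured, summed to 142.8 FPKM in the knockdown, 2.86 FPKM in the maturing control and 9.71 FPKM in the proliferating control, with Mcpt8 listed at 0 in the proliferating control. The 3 megakaryocyte markers, 2 of them measured, summed to 9.93, 2.97 and 3.13 FPKM in the same order, with Pf4 listed at 0 in the proliferating control. The 3 macrophage or monocyte markers, 1 of them measured, summed to 1.26, 1.48 and 1.19 FPKM, but Csf1r and Cd68 lay on opposite sides of 0. Csf1r was at 0.880 FPKM in the knockdown, 0.254 FPKM in the maturing control and 0.328 FPKM in the proliferating control, and Cd68 at 0.377, 1.22 and 0.855 FPKM. The authors' deposited table called neither in the knockdown against the proliferating control, but called Csf1r higher and Cd68 lower in the knockdown against the maturing control. The part of these markers' cells in any chaperone level was not tested, and in bulk RNA fewer cells of a type and less RNA per cell cannot be told apart.

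The members spanned a wide range of levels in FPKM, which is per length. Hspa8, the constitutive cytosolic Hsp70, was highest in all 3 libraries and Hspa1a lowest, and the highest was 199.8 times the lowest in the knockdown, 251 times in the maturing control and 235 times in the proliferating control. In both kinds of control the order from high to low was Hspa8, Hsp90ab1, Hsp90aa1, Hspe1, Hspd1, Hspa9, Hsph1, Dnajb1, Hspa1b and Hspa1a. In the knockdown Dnajb1 stood above Hsph1 and the other 8 members kept their places. With 1 library per group the order of neighbours has no replicate spread to be read against. Together the 10 genes summed to 1049 FPKM in the knockdown, 1260 FPKM in the maturing control and 1413 FPKM in the proliferating control. These sums were 0.617%, 0.711% and 0.801% of the FPKM of all genes in those libraries.

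**Figure D2:**
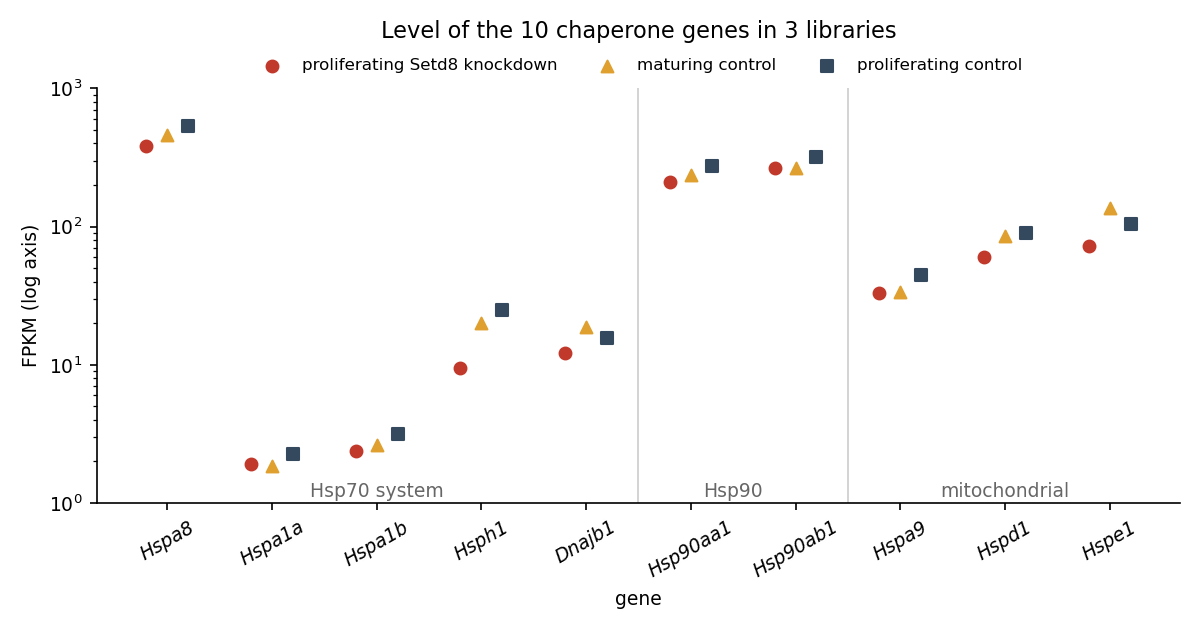
Level of each member (FPKM, log axis) in proliferating Setd8 knockdown cells (red circles), maturing control cells (yellow triangles) and proliferating control cells (blue squares), 1 library each. Hspa8 and the Hsp90 genes lie above 200 FPKM and Hspa1a and Hspa1b below 4 FPKM in all 3 libraries, and the red circle of Hsph1 lies at 9.54 FPKM, below both controls.

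The knockdown was set against control cells in the same proliferating state. Hsph1, the Hsp110 exchange factor, fell, and the other 9 members had lower values in the knockdown without being called. Lower values were thus held by 10 of 10 members, against 55.6% of the 9612 genes measured and 61.6% of those at 5 FPKM or more in every library. The authors' deposited table called 1 of the 10, in the lower direction, where it called 3.24% of all tested genes lower and 9.05% in either direction. A deposited p under 0.05 was likewise reached by 1 of 10, against 14.7% of tested genes. The median log2 ratio of FPKM + 1 was -0.40 over the members and -0.05 over all measured genes. All 10 ratios lay below that median gene, and the least negative, that of Hspa1a, still had 35.0% of measured genes at or below it. The direction held on every scaling tried.

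Hsph1 stood at 9.54 FPKM in the knockdown, 20.0 FPKM in the maturing control and 24.9 FPKM in the proliferating control. The knockdown library was the low one, at 38.3% of the proliferating control, a share close to the 37.0% of Setd8 itself. In the authors' deposited table its log2 ratio was -1.38 with a model standard error of 0.41 and a q of 0.0122 in the knockdown comparison. Of the measured genes, 160 had a ratio of FPKM + 1 as low or lower, which is 1.66%. Its 95% interval from the authors' model ran from -2.19 to -0.58 and overlapped those of the other 9 members, and the difference between Hsph1 and the others was not tested. Hsph1 lies on chromosome 5 from 150419419 to 150438890 (mm9) and overlaps no other entry of the table. Its neighbour B3galtl was at 4.29 FPKM in the knockdown, 4.84 FPKM in the maturing control and 4.71 FPKM in the proliferating control, and Wdr95, on its other side, was listed at 0 in all 3.

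The partners of Hsph1 in the cytosolic Hsp70 cycle had smaller differences. Hspa8 stood at 385 FPKM in the knockdown, 462 FPKM in the maturing control and 536 FPKM in the proliferating control. It ranked 60th of the measured genes in the knockdown, 40th in the maturing control and 33rd in the proliferating control. In the authors' deposited table its log2 ratio in the knockdown was -0.48 with a model standard error of 0.36, a p of 0.179 and a q of 0.835. Hsph1 therefore amounted to 2.48% of the Hspa8 level in the knockdown, 4.33% in the maturing control and 4.64% in the proliferating control. Dnajb1, the J-domain protein that hands clients to Hsp70, stood at 12.2 FPKM in the knockdown, 18.9 FPKM in the maturing control and 15.6 FPKM in the proliferating control. Relative to Hspa8 it was at 3.18%, 4.08% and 2.91% in these libraries, so only its level relative to Hspa8, not its own level, was higher in the knockdown than in the proliferating control.

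The stress-inducible Hsp70 genes were near the lower end of measured genes. Hspa1a stood at 1.93 FPKM in the knockdown, 1.84 FPKM in the maturing control and 2.28 FPKM in the proliferating control. Hspa1b stood at 2.38 FPKM in the knockdown, 2.61 FPKM in the maturing control and 3.17 FPKM in the proliferating control. These copies share most of their sequence. How fragments that match both were counted is not given, so their sum may be too low or too high as well. Their values summed to 4.31 FPKM in the knockdown, 4.45 FPKM in the maturing control and 5.45 FPKM in the proliferating control. This sum was 1.12%, 0.963% and 1.02% of the Hspa8 level. The inducible genes had their highest value in the proliferating control, and no library had a level of them near that of Hspa8. In the authors' deposited table the log2 ratios in the knockdown were -0.24 for Hspa1a and -0.41 for Hspa1b. Their model standard errors were larger, at 0.56 and 0.55, and neither gene was called in any comparison. Hspa1l, a related Hsp70 gene beside Hspa1a, was at 1.80, 1.79 and 1.88 FPKM in the knockdown, the maturing control and the proliferating control.

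Hsp90 completes the folding of kinases and steroid receptors. Hsp90aa1, its more stress-responsive cytosolic form, stood at 209 FPKM in the knockdown, 236 FPKM in the maturing control and 273 FPKM in the proliferating control. Hsp90ab1, the constitutive form, stood at 263 FPKM in the knockdown, 264 FPKM in the maturing control and 318 FPKM in the proliferating control. The ratio of Hsp90aa1 to Hsp90ab1 was 0.796 in the knockdown, 0.892 in the maturing control and 0.860 in the proliferating control. The constitutive form thus had the higher value in every library. Hsp90aa1 shared 62.9% of its words with other genes and Hsp90ab1 16.6%, and the effect of this on their order was not tested. In the authors' deposited table the log2 ratios in the knockdown were -0.39 for Hsp90aa1 and -0.27 for Hsp90ab1, with model standard errors of 0.36 each, and neither was called. In the knockdown, 55.6% of all measured genes had lower values than in the proliferating control. Of the 12 measured genes next to a member that are no members themselves, 5 had lower and 7 higher values, untested against that share. Examples of each, named after their values were seen, stand beside Hsp90ab1 and Hspa9. The nucleoside transporter gene Slc29a1, beside Hsp90ab1, was at 66.3 FPKM in the knockdown, 54.8 FPKM in the maturing control and 42.0 FPKM in the proliferating control. Slc35b2, on the other side of Hsp90ab1, was at 12.0 FPKM in the knockdown, 9.67 FPKM in the maturing control and 8.86 FPKM in the proliferating control. Etf1, a translation termination factor gene beside Hspa9, was at 23.1 FPKM in the knockdown, 24.2 FPKM in the maturing control and 30.4 FPKM in the proliferating control.

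Of the mitochondrial members, Hspd1 (Hsp60) stood at 60.0 FPKM in the knockdown, 85.0 FPKM in the maturing control and 90.5 FPKM in the proliferating control. Its partner Hspe1 (Hsp10) stood at 72.3 FPKM in the knockdown, 135.7 FPKM in the maturing control and 104.6 FPKM in the proliferating control. Both were lowest in the knockdown, at 66.3% and 69.1% of the proliferating control, the largest differences of the comparison after Hsph1. In the authors' deposited table the log2 ratio of Hspd1 in the knockdown was -0.59 with a model standard error of 0.38 and a q of 0.675, and that of Hspe1 was -0.53 with one of 0.41 and a q of 0.880. The ratio of Hspe1 to Hspd1 was 1.21 in the knockdown and 1.16 in the proliferating control. These genes are the ones that share the printed upstream stretch. Hspa9, the mitochondrial Hsp70, stood at 33.3 FPKM in the knockdown, 33.8 FPKM in the maturing control and 44.5 FPKM in the proliferating control, and was not called.

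**Figure D3:**
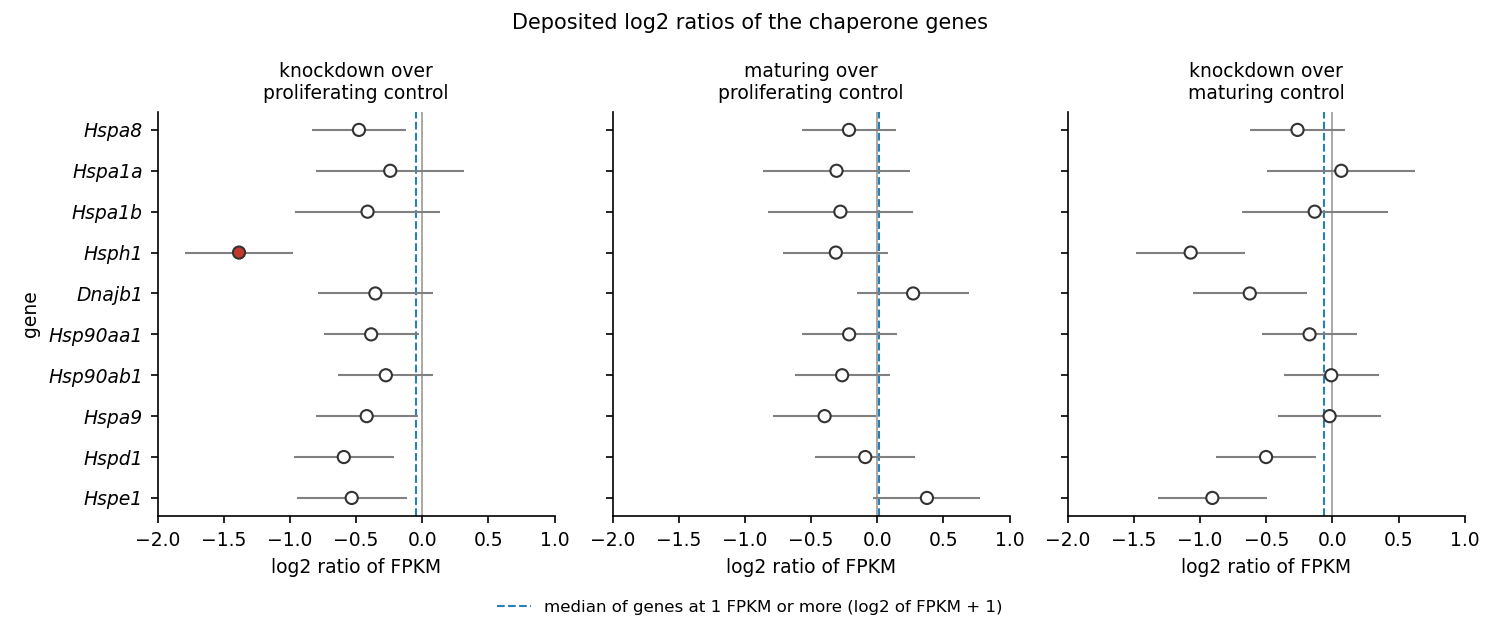
Log2 ratio of FPKM from the authors' deposited table for each member in the 3 comparisons, with bars of 1 standard error of the authors' model. The filled point, Hsph1 in the knockdown over the proliferating control (-1.38), is the only call. The dashed line marks the median of all measured genes, taken from log2 ratios of FPKM + 1, unlike the points.

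Control cells kept in maturation medium for 6 h were then set against proliferating ones. No member was called in the authors' deposited table, where 1.75% of tested genes were called, and 0 of 10 had a deposited p under 0.05, against 4.9% of tested genes. Lower values in the maturing control were held by 8 of 10 members, against 47.3% of measured genes and 52.3% of those at 5 FPKM or more in every library. The members' median ratio (log2 of FPKM + 1) was -0.21, and that of all measured genes 0.01. The members' mean was -0.13. The most negative ratio was that of Hspa9, at -0.39, where its level was 75.9% of the proliferating control. Both Hsp90 genes, Hspa8, Hspa1a, Hspa1b and Hsph1 were at 80.5% to 86.3% of the proliferating control, and Hspd1 was at 93.9%.

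Hspe1 and Dnajb1 were the exceptions and had higher values in the maturing control. Hspe1 was at 129.7% of the proliferating control and Dnajb1 at 120.6%. In the authors' deposited table the log2 ratio of Hspe1 in maturation was 0.38 with a model standard error of 0.40 and a p of 0.353, and that of Dnajb1 was 0.27 with one of 0.42 and a p of 0.523. The ratio of Hspe1 to Hspd1 was 1.60 in the maturing control and 1.16 in the proliferating control. That difference within the lid and barrel pair was not tested, and both genes share sequence with annotated pseudogenes. The knockdown and the maturation comparison use the same proliferating control library, so a high value in that library lowers both ratios of a member.

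A further comparison in the authors' deposited table sets the proliferating knockdown against the maturing control and does not use that library. Hairpin and medium differ together in it, so their effects cannot be told apart. No member was called, against 11.6% of tested genes. A deposited p under 0.05 was reached by 2 of 10 members, Hsph1 and Hspe1, against 18.6% of tested genes, a share near the background. Lower values in the knockdown were held by 9 of 10 members, against 57.6% of the 7530 measured genes listed there and 59.6% of those at 5 FPKM or more in every library. Of these members, Hspa9 and Hsp90ab1, at 98.5% and 99.4% of the maturing control, had higher values on 4 of the 6 other scalings and pseudocounts tried. Over the members the median log2 ratio of FPKM + 1 was -0.22, and over all measured genes -0.06. The members' value was -0.38 as a median of the 8 at 5 FPKM or more in a library and -0.35 as a mean of all 10. In the authors' deposited table the log2 ratio of Hsph1 was -1.07 with a model standard error of 0.41, a p of 0.00931 and a q of 0.108 in this comparison. That of Hspe1 was -0.91 with a model standard error of 0.41, a p of 0.0271 and a q of 0.249 in the authors' deposited table. Hspa1a, at 104.7% of the maturing control, was the 1 member with a higher value in the knockdown.

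Other genes of the chaperone network were read from 11 lists with 148 distinct entries, of which 147 had a row and 124 were measured. The lists overlap (Stip1, for example, stands in several), so the counts by list below repeat some genes. The globin chaperone Ahsp was not analysed here. In the knockdown, 89 of the 124 had lower values and 35 higher, with no call among them in the authors' deposited table. Over all genes, 55.6% of those measured had lower values and 9.05% of those tested were called. The network's median log2 ratio of FPKM + 1 was -0.12, against -0.40 for the members, which the network does not contain. The network's value depended on the setting. Among genes at 5 FPKM or more in a library it was -0.20, against -0.44 for the members, and with ratios centred on abundant genes it was -0.04, against -0.31 for the members. No test of this difference was possible with 1 library per group, and members and lists were chosen with earlier results of these data known.

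Regulators come first. Hsf1, which induces heat shock genes, stood at 4.66 FPKM in the knockdown, 5.74 FPKM in the maturing control and 5.50 FPKM in the proliferating control. Hsf2, a related factor named after its values were seen, stood at 0.931 FPKM in the knockdown, 1.47 FPKM in the maturing control and 1.60 FPKM in the proliferating control. Hsbp1, which binds Hsf1 and limits it, was at 16.5 FPKM, 16.3 FPKM and 15.6 FPKM in those libraries. None of these 3 regulators was called in any comparison of the authors' deposited table. In the knockdown, 55.6% of measured genes and 61.6% of those at 5 FPKM or more in every library had lower values. Of 12 measured further targets of Hsf1, 8 had lower values there, with a median log2 ratio of -0.21. Fkbp4, a peptidyl-prolyl isomerase that works with Hsp90, was lowest among them, at 23.4 FPKM in the knockdown against 39.6 FPKM in the proliferating control. Hspa4, an Hsp110 gene like Hsph1, was highest and on the other side of 0, at 26.9 FPKM in the knockdown against 22.6 FPKM in the proliferating control. Neither Fkbp4 nor Hspa4 was called.

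The long heat shock element printed above was also followed across all genes. Leaving out the members, 39 measured genes had it in a promoter window, and 23 of them (59.0%) had lower values in the knockdown, against 55.8% of 6794 measured genes with any window. Their median log2 ratio of FPKM + 1 was -0.05, the same to 2 decimals as that of the 6794 genes, and none of the 39 was called, against 6.05% of the 6794. In the maturing control 16 of the 39 had lower values, against 47.3% of the genes with a window, and none was called, against 1.25% of those genes.

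Most cochaperones lay on the members' side of 0 in the knockdown, where 55.6% of measured genes and 61.6% of those at 5 FPKM or more in every library had lower values. None was called, against 9.05% of tested genes. Of 14 Hsp70 exchange factors and cochaperones, 12 had lower values, at a median log2 ratio of -0.20. The exchange factor Bag1 was lowest, at 30.8 FPKM in the knockdown against 51.6 FPKM in the proliferating control, and the ubiquitin ligase Stub1 highest, at 13.9 and 12.1 FPKM. Of 20 Hsp90 cochaperones, 18 had lower values, at a median of -0.19. The cyclophilin Ppid was lowest, at 12.7 FPKM in the knockdown against 22.0 FPKM in the proliferating control. Of 15 genes of the cytosolic chaperonin TRiC and of prefoldin, which fold actin and tubulin, 14 had lower values, at a median of -0.27. Their range was narrow, from Cct7, at 36.9 FPKM in the knockdown against 48.4 FPKM in the proliferating control, to Pfdn5, at 21.7 and 20.6 FPKM.

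Chaperones of organelles and the J-domain family were more divided. The background for lower values was again 55.6% of measured genes and 61.6% of those at 5 FPKM or more in every library. Of 38 measured J-domain genes, 23 had lower values in the knockdown, at a median of -0.07 that turned to 0.02 when ratios were centred on abundant genes. Dnajc8 was lowest, at 14.3 FPKM in the knockdown against 26.0 FPKM in the proliferating control. Hscb, which serves iron-sulphur cluster assembly, was highest among those at 5 FPKM or more in a library, at 6.82 and 5.79 FPKM. Several genes below that level had higher ratios, with Dnajc15 highest of all 38, at 3.12 and 2.11 FPKM. Of 17 mitochondrial chaperones and proteases beside the members, 11 had lower values, at a median of -0.11. The protease Htra2 was lowest, at 13.3 FPKM in the knockdown against 27.6 FPKM in the proliferating control, with a q of 0.220 in the authors' deposited table, and Spg7 was highest, at 6.44 and 5.08 FPKM. Of 17 chaperones of the endoplasmic reticulum, 12 had lower values, at a median of -0.16. Hspa5, the Hsp70 of that compartment, was lowest, at 45.9 FPKM in the knockdown against 68.0 FPKM in the proliferating control. P4hb, a disulphide isomerase, was highest, at 59.0 FPKM in the knockdown against 48.9 FPKM in the proliferating control. The 8 measured other Hsp70 and Hsp110 genes, 5 of them lower, had a median of -0.06, which centring turned to 0.03. Only 2 of 10 small heat shock proteins were measured, both with higher values in the knockdown.

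**Figure D4:**
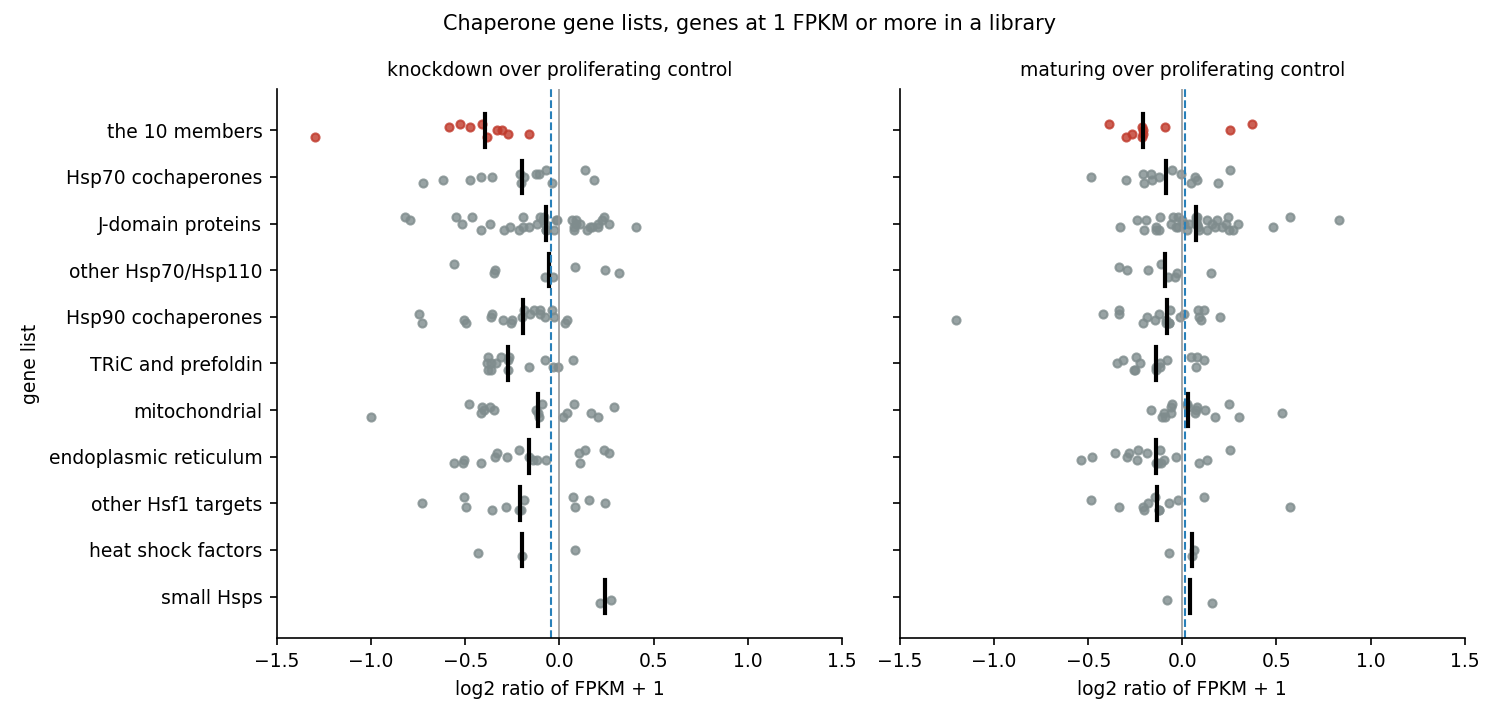
Log2 ratio of FPKM + 1 of every measured gene (points) in the members (red) and in 10 lists of other chaperone genes (grey), for the knockdown (left) and the maturing control (right), each over the proliferating control, with each list's median (black bar) and the median of all measured genes (dashed line). In the knockdown the members' median (-0.40) lies left of every list's median, of which that of TRiC and prefoldin (-0.27) is nearest.

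In the maturing control, 71 of the 124 network genes had lower values and 53 higher, at a median of -0.05, against 47.3% of all measured genes with lower values. Fkbp5, an isomerase that works with Hsp90 on steroid receptors, was the 1 network gene of 124 called in this comparison, no more than the 1.75% called among all tested genes. It fell to 6.90 FPKM in the maturing control, against 17.2 FPKM in the proliferating control, and the authors' deposited table gives a log2 ratio of -1.32 at a q of 0.0286. In the proliferating knockdown, which had not been placed in maturation medium, Fkbp5 was at 17.7 FPKM. Of the 38 J-domain genes, 24 had higher values in the maturing control, with Dnaja4 highest, at 17.4 FPKM in the maturing control and 9.32 FPKM in the proliferating control. Dnaja4 was at 4.96 FPKM in the knockdown, and the authors' deposited table called it lower there than in the maturing control, at a log2 ratio of -1.81 and q = 0.00142. In that comparison Fkbp5 was called higher in the knockdown, at a log2 ratio of 1.36 and q = 0.0210 in the authors' deposited table. Of the 108 measured network genes listed there, 1 was called higher and 1 lower, against 11.6% of tested genes called in either direction. Of 15 TRiC and prefoldin genes 11 had lower values in the maturing control, and of 17 endoplasmic reticulum chaperones 14 had. Hsp90b1, the Hsp90 of that compartment, was lowest in that list, at 25.9 FPKM in the maturing control and 38.0 FPKM in the proliferating control, and was not called.

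Genes with a pattern like that of Hsph1 were sought among 4991 genes at 5 FPKM or more in the proliferating control, over the 3 libraries. Likeness was the distance between pairs of log2 ratios of FPKM + 1, knockdown and maturing control each over the proliferating control. The nearest were Ergic1, Ptp4a3, Snora65, Lpl and Glul, at distances of 0.0263 to 0.0983. Glul, the glutamine synthetase gene, stood at 9.96 FPKM in the knockdown, 21.6 FPKM in the maturing control and 27.6 FPKM in the proliferating control. Ptp4a3, which encodes a phosphatase, was at 9.47 FPKM, 18.5 FPKM and 23.3 FPKM in those libraries. The lipoprotein lipase gene Lpl was at 6.04 FPKM, 12.2 FPKM and 16.4 FPKM, and Ergic1 at 2.21 FPKM, 5.34 FPKM and 6.94 FPKM. All of these but Snora65, a short RNA, were called lower in the knockdown in the authors' deposited table. These genes were chosen for ratios near those of Hsph1, so their calls are no separate evidence of likeness. With 3 libraries such a likeness rests on 2 ratios per gene. None of the 5 is a chaperone gene.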

How the data were processed

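RNA from cultured mouse erythroblasts was sequenced. Per the submitters' processing notes, the tools included Cufflinks 2.0.2, Cuffdiff and FastQC 0.10.1, on mm9. Not given in the sources used here are the aligner, the annotation and how fragments that match several genes were handled. A single deposited table of 65535 rows holds 3 pairwise comparisons, and its layout, per the file headers, is that of Cuffdiff, so the 2 values per row were read as FPKM. Per the file headers, each row also holds the authors' log2 ratio, a test statistic (a score without a fixed range), a p-value and a q-value. A gene counted as called where the authors marked it, which was exactly at a q of at most 0.05. Dividing the log2 ratio by the statistic gave a standard error under the authors' model, and 95% model intervals follow from it. They hold no replicate spread.

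Own values were FPKM per library and log2 ratios of FPKM + 1, which understate changes of low genes. Each group had 1 library, so no test was run. Genes with 1 FPKM in any library (9612) were taken as measured. The third comparison lists 19067 of 23234 genes. Network genes without a value there all come late in the alphabet, from Spg7 to Yme1l1. Shares of all genes in that comparison therefore rest on the listed part. The members, the lists and the alternatives were chosen with earlier results of these data known. The naming rule took all members, called list genes and the highest and lowest list gene at 5 FPKM or more. List symbols were matched directly or through RefSeq synonyms. Promoter windows came from RefSeq on GRCm38.p6. Transcript 31-mers came from GENCODE M21 and show which members share sequence with other genes. The list median was tried on simulated data made from the proliferating control. The simulated noise was smaller than the members' model standard errors, so this checks the calculation and not the spread of these data. A shift of -1 on the log2 scale came back as -0.98 among 899 genes at 30 FPKM or more. Among 4999 genes at 5 FPKM or more it came back as -0.89, so ratios shrink as levels fall. Hspa1a and Hspa1b lay below both levels and outside the simulation. A marker list is not reported here. Software was Python 3.11.15 with pandas 2.3.3, numpy 2.4.6, scipy 1.17.1 and matplotlib 3.10.9.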

Additional observations from a re-analysis of the deposited data

How the results depend on the processing

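Each group had 1 library, so no library could be left out. No paired analysis was possible because each group held 1 sample. Under 6 other pseudocounts and scalings, all 10 members kept lower values in the knockdown than in the proliferating control, and their median, or the mean in its place, ranged from -0.47 to -0.31. At a q under 0.01 the count of called members was 0, since Hsph1 has a q of 0.0122. Its ratio ranged from -1.38 to -1.04. In the maturing control 8 members had lower values under each of these settings, with medians, or the mean, from -0.25 to -0.13. In the knockdown against the maturing control the medians ranged from -0.38, over the members at 5 FPKM or more, to -0.16, with ratios centred on abundant genes. Centring moved the median measured gene by 0.09 at most. For the wider network the median ranged from -0.20, over genes at 5 FPKM or more, to -0.04, when centred, in the knockdown and from -0.07 to -0.01 in the maturing control. Among genes at 5 FPKM or more in every library, the smallest size called in the knockdown comparison was a log2 ratio of 1.18 in the authors' deposited table, and the other 9 members had smaller ratios than that. Absolute depth is unknown.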
